A study of Sus scrofa with 15 samples.

Results

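The genes described here encode beta subunits of the proteasome. Genes were taken if their symbol begins with PSMB in the lists of differentially expressed genes (DEGs) that the study drew from these same libraries, which gave 4 of the 16660 genes in the count table: PSMB4 (ENSSSCG00000034984), PSMB8 (ENSSSCG00000026951), PSMB9 (ENSSSCG00000001463) and PSMB10 (ENSSSCG00000031781). All 4 are on the list for the Tg2 plasmid against the control plasmid (NC), and PSMB8 is also on the list for Tg3 against NC. Because those comparisons chose the genes, their differences from NC, the difference of Tg2 from WT, and that of PSMB8 in Tg3 from WT are given below as descriptions without a test.

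The libraries came from LLC-PK1 cells, an established epithelial line of the pig renal proximal tubule, harvested 48 h after transient transfection with 3 µg of plasmid. All plasmids shared a floxP-neo-pH11 backbone with a CAG promoter. By the study's methods the FLAG tag belongs to the PKD2 insert, whereas the labels write FLAG-floxP-neo-pH11 for NC too. NC carried no PKD2 gene and WT carried normal human PKD2, while the other plasmids carried mutant human PKD2. The protein change was D511V in Tg1 (coding change A1532T), L656W in Tg2 (T1967G) and the premature stop R742X in Tg3 (C2224T). PKD2 encodes the cation channel polycystin-2, and mutations in it cause autosomal dominant polycystic kidney disease. The endogenous pig gene was still present in every group, so each plasmid adds a human copy to cells that have their own, and the human transgene was not analysed here. RNA was sequenced from 3 wells per plasmid, giving 15 libraries with totals of 20216200 to 26132196 counts. The wells of a plasmid were transfected from the same cell line, so the p-values below measure the spread between wells, which may be technical.

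The proteasome degrades proteins that carry ubiquitin. Its barrel-shaped 20S core is built of rings of alpha and beta subunits, and regulatory caps on its ends, among them the 19S particle, admit substrates. PSMB5, PSMB6 and PSMB7 are the catalytic beta subunits of the standard core. Interferons and other inflammatory signals induce PSMB8, PSMB9 and PSMB10, which take the places of PSMB5, PSMB6 and PSMB7, respectively, in newly assembled cores and so form the immunoproteasome, whose products are well suited to presentation on MHC class I molecules. PSMB4 belongs to the standard core, has no catalytic activity of its own and takes part in core assembly. Thus the chosen genes are 3 immunoproteasome subunits and 1 structural subunit that both kinds of core contain. Of the other PSMB genes, PSMB1, PSMB2, PSMB3 and PSMB7 were found in the table under a symbol, and PSMB5, PSMB6 and PSMB11 were not analysed here.

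Levels are given as CPM, counts scaled to the size of the library, after TMM normalization, which equalises the bulk of genes between libraries. They are not divided by transcript length, so a gene is compared between plasmids and never with another gene. Wells of the same plasmid were not equal within counting noise, for which chi-square divided by its degrees of freedom is about 1, since that value ran from 2.73 (Tg3 replicates 1 and 3) to 40.3 (WT replicates 2 and 3). WT replicate 2 stood apart for the genes at issue. Its PSMB9 level was 1.49 times the mean of WT replicates 1 and 3, and the corresponding ratios were 1.40 for PSMB8, 1.37 for PSMB10 and 1.26 for PSMB4, where the median over all tested genes was 0.994. Results that rest on WT are therefore given with and without this library. The labelled cell type was checked by epithelial and proximal tubule markers, of which 11 of 12 were found, with summed levels of 4086 to 4417 CPM over all libraries and KRT8, an epithelial keratin, at 2138 CPM or more in each. The immune marker PTPRC averaged 0.0166 CPM and the fibroblast markers PDGFRA and PDGFRB averaged 0.0175 and 0.0149 CPM, whereas COL1A2, which is on the fibroblast list, was expressed and made up most of that list's summed level of 851 to 1025 CPM. Other genes of the immune list were detected in every library, CD74 at 216 to 340 CPM, CD3E at 18.2 to 22.8 CPM and CD79A at 4.98 to 7.66 CPM. In bulk RNA, fewer cells expressing a gene and less RNA of it per cell cannot be told apart.

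All 4 genes were expressed in every library, and their mean level was highest with Tg2. With NC and WT the means were nearly equal, and with Tg1 and Tg3 they lay in between. The differences of Tg2 from NC were 1.24 to 1.36 fold, and the highest and lowest WT wells differed by 1.29 to 1.54 fold.

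PSMB8, the inducible counterpart of PSMB5, was at 247, 297 and 227 CPM in NC replicates 1, 2 and 3. In Tg2 it was at 374, 369 and 306 CPM. All 3 Tg2 libraries were above all 3 NC libraries, although Tg2 replicate 3 exceeded NC replicate 2 only slightly. The fitted log2 fold change was 0.44 (SE 0.13), or 1.36 fold. In WT the levels were 235, 320.0 and 221 CPM, with replicate 2 above the lowest Tg2 library and replicates 1 and 3 below the mean of NC. Tg1 gave 276, 323 and 314 CPM and Tg3 gave 301, 340.1 and 292 CPM. Both mutants overlapped with NC through NC replicate 2, and their log2 fold changes against NC were 0.24 and 0.28 (SE 0.13 for each).

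PSMB9, the inducible counterpart of PSMB6, was at 147, 179 and 138 CPM in NC and at 246, 211 and 171 CPM in Tg2. Its Tg2 libraries were the most widely spread of the 4 genes, with the highest 1.43 times the lowest, and Tg2 replicate 3 lay below NC replicate 2, so the groups overlapped. The log2 fold change was 0.44 (SE 0.17). The 3 WT libraries held 138, 199 and 129 CPM, a 1.54-fold span within a single plasmid that was wider than the 1.35-fold difference between the Tg2 and NC means. With Tg1 the levels were 163, 206 and 204 CPM and with Tg3 they were 188, 217 and 177 CPM. These overlapped with NC as well, at log2 fold changes of 0.31 and 0.33 (SE 0.17 for each).

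PSMB10, the inducible counterpart of PSMB7, was at 113, 132 and 111 CPM in NC and at 160.4, 143 and 137 CPM in Tg2. No Tg2 library fell within the NC range, and the log2 fold change of 0.31 (SE 0.12) was the smallest of the 4 genes and the one nearest to the threshold of 0.26 that the study set for its lists. The WT levels were 106, 143 and 102 CPM, again with replicate 2 alone at the height of the Tg2 libraries. Tg1 (125, 147 and 140.4 CPM) and Tg3 (131, 148 and 126 CPM) overlapped with NC. Their log2 fold changes were 0.22 and 0.19 (SE 0.12 for each).

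PSMB4, the structural subunit, was at 263, 288 and 255 CPM in NC and at 365, 357 and 325 CPM in Tg2. The gap between the groups was the clearest of the 4 genes, with the lowest Tg2 library above the highest library of NC and of WT, and the log2 fold change was 0.38 (SE 0.086), or 1.30 fold. WT gave 261, 321 and 250.0 CPM. The Tg1 levels of 296, 321 and 319 CPM and the Tg3 levels of 313, 344 and 297 CPM were all above NC. The log2 fold changes were 0.22 for Tg1 and 0.24 for Tg3 (SE 0.086 for each), so PSMB4 was separated from NC in all 3 mutants, which none of the immunoproteasome genes was.

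**Figure D1:**
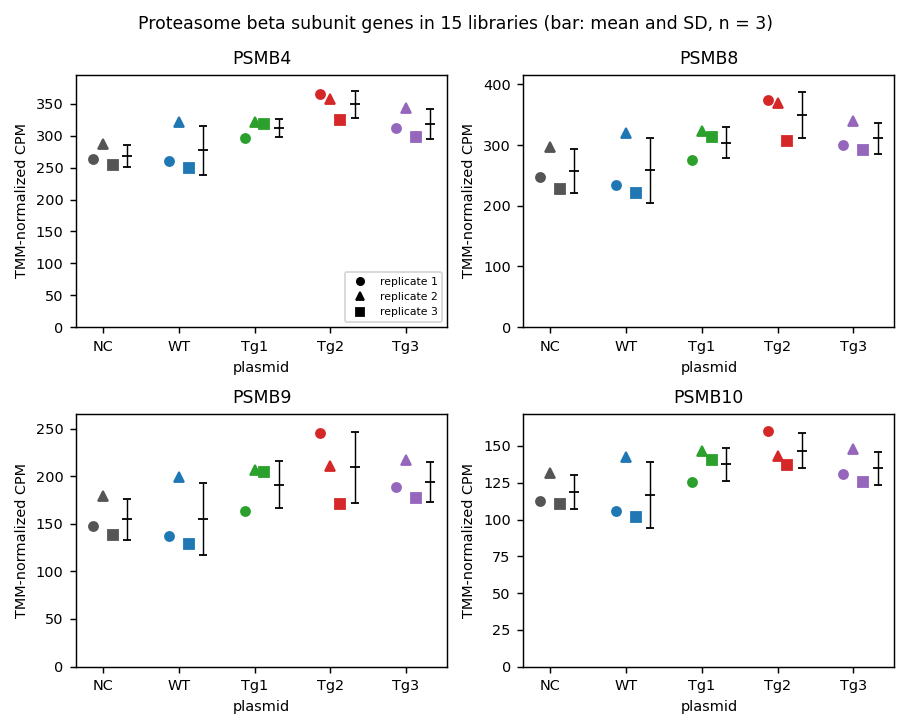
TMM-normalized CPM (vertical axes, starting at 0) of PSMB4, PSMB8, PSMB9 and PSMB10 by plasmid (horizontal axes), with 1 point per library, the symbol marking the replicate number, and a bar for the mean and SD of 3 libraries. Tg2 has the highest mean in every panel, and WT replicate 2 (blue triangle) lies above the other 2 WT libraries, for example at 199 against 138 and 129 CPM for PSMB9.

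In Tg2 against NC, 3 of the 4 genes had every Tg2 library above every NC library, where 17.5% of the 11553 tested genes did. In Tg1 and Tg3 this held for PSMB4 alone, with 11.9% and 13.4% of tested genes, and in WT for none of the 4, with 3.73%. These comparisons share the NC libraries. The shares for Tg2 and Tg3 are printed for scale only, as those contrasts chose the genes. The order of the means was NC, WT, Tg1, Tg3 and Tg2 for PSMB4, PSMB8 and PSMB9, and WT, NC, Tg3, Tg1 and Tg2 for PSMB10. The ranges of neighbouring plasmids in these orders overlapped in every case, so no neighbour can be called different beyond its spread. WT differed from NC by log2 fold changes of 0.047 for PSMB4, 0.010 for PSMB8, 0.0041 for PSMB9 and -0.021 for PSMB10, with SEs of 0.086 to 0.17. Without WT replicate 2 these became -0.072, -0.17, -0.22 and -0.19, respectively, so the direction for PSMB4, PSMB8 and PSMB9 was reversed. Over the 13 alternative settings of the analysis the value was above 0 in 11 for PSMB4, 9 for PSMB8 and 8 for PSMB9.

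Against WT, the Tg2 log2 fold changes were 0.33 for PSMB4, 0.43 for PSMB8, 0.43 for PSMB9 and 0.33 for PSMB10. Only PSMB4 had all Tg2 libraries above all WT libraries, as did 12% of tested genes. Without WT replicate 2 the values were 0.45, 0.62, 0.65 and 0.50, respectively. The PSMB8 difference of Tg3 from WT was 0.27 (SE 0.13) on the log2 scale, and 0.45 without that library.

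The contrasts of Tg1 and Tg3 with WT did not choose the genes, PSMB8 in Tg3 excepted, and were tested with edgeR's quasi-likelihood test with Benjamini-Hochberg adjustment over all 11553 tested genes. Calls required an adjusted p no higher than 0.05 together with a log2 fold change of at least 0.26 in size. For Tg1 against WT, 0 of the 4 genes were called, 0 had an unadjusted p-value under 0.05, and DESeq2 also called 0. Of all tested genes 15.6% had such an unadjusted p-value. Among all tested genes edgeR called 0% higher in this contrast and 0.0692% in either direction, and DESeq2 called 76 genes in either direction. The log2 fold changes were 0.17 for PSMB4 (SE 0.086, adjusted p = 0.356), 0.23 for PSMB8 (SE 0.13, adjusted p = 0.408), 0.30 for PSMB9 (SE 0.17, adjusted p = 0.393) and 0.24 for PSMB10 (SE 0.12, adjusted p = 0.344). For Tg3 against WT, 0 of 3 genes were called by edgeR and 0 by DESeq2, and 1, PSMB4, had an unadjusted p-value under 0.05. Of all tested genes edgeR called 0% and DESeq2 called 108 genes, and 19.2% had such an unadjusted p-value. PSMB4 differed by 0.20 (SE 0.086, adjusted p = 0.24), PSMB9 by 0.32 (SE 0.17, adjusted p = 0.298) and PSMB10 by 0.21 (SE 0.12, adjusted p = 0.326), all on the log2 scale. In neither contrast was any of the genes free of overlap with WT, as 8.45% of tested genes were in Tg1 and 10.3% in Tg3, with all libraries higher.

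These calls depended on WT replicate 2. That library was set apart because the same genes were high in it. The calls and adjusted p-values without it follow in part from that choice, and are descriptions rather than tests. When WT replicate 2 was left out, edgeR's quasi-likelihood test called all 4 genes higher in Tg1 than in WT, where 4.26% of tested genes were called higher. The log2 fold changes then lay between 0.29 for PSMB4 (adjusted p = 0.0252) and 0.52 for PSMB9 (adjusted p = 0.0372). In Tg3 all 3 tested genes were called, against 7.25% of tested genes, from 0.32 for PSMB4 (adjusted p = 0.0175) to 0.54 for PSMB9 (adjusted p = 0.0266). Leaving out any other library of the groups compared gave 0 calls in both contrasts. Those settings also called 0 of all tested genes in Tg1 against WT and 0 or 1 in Tg3 against WT. The absence of calls there was therefore not particular to these genes. Without both WT replicate 2 and NC replicate 2, the NC library in which the 4 genes were highest, the same 4 and 3 genes were called, where 5.2% and 7.75% of tested genes were called higher in Tg1 and Tg3, respectively.

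**Figure D2:**
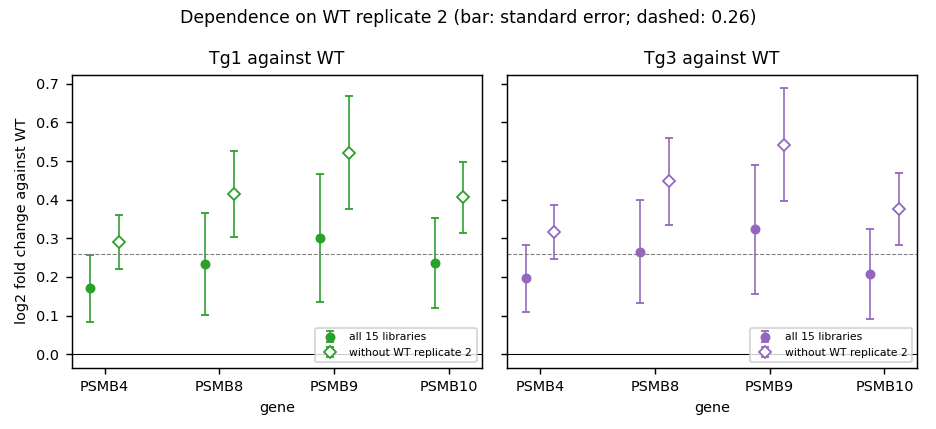
Log2 fold change against WT (vertical axes) of the 4 genes in Tg1 (left) and Tg3 (right), with all 15 libraries (filled circles) and without WT replicate 2 (open diamonds). Bars are standard errors and the dashed line is the threshold of 0.26. For PSMB9 in Tg1 the value moved from 0.30 to 0.52 when the library was left out.

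The 4 genes were highest in the same well of each plasmid. In NC, WT, Tg1 and Tg3, replicate 2 held the highest level of all 4 genes, and in Tg2 replicate 1 did. This was not particular to them, since PSMB2, PSMA1, PSME1, PSME2 and CD74, described below, were highest in the same wells. PSMB1, PSMB3 and PSMB7 were not, and the share of all tested genes with this pattern was not analysed here. The ratio of the highest to the lowest WT library was 1.29 for PSMB4, 1.45 for PSMB8, 1.54 for PSMB9 and 1.40 for PSMB10, against a median of 1.13 over all tested genes. In the other plasmids PSMB8, PSMB9 and PSMB10 spanned 1.16 to 1.43 fold and also lay above the all-gene medians of 1.10 to 1.12, whereas PSMB4 in Tg1 (1.08 against 1.10) and in Tg2 (1.12 against 1.12) did not exceed them. Pearson's correlation of log2 CPM between any 2 of the 4 genes was 0.95 to 0.982 over the 15 libraries. This is a description, since the libraries share the plasmid differences and the high wells. Many other genes were more alike, since among 11552 genes ranked by correlation with a member the other members held ranks 26 to 368. The genes most like each member were sought among all tested genes with a symbol. For PSMB4 they were PAQR7 (r = 0.994), POR, which donates electrons to cytochromes P450, SERPING1, a complement inhibitor, CD74 and LGALS3BP (r = 0.987). PSMB8 came closest to NUPR1 (r = 0.993), BID, a mediator of apoptosis, LAP3, an aminopeptidase, PSMA2 and FUNDC1 (r = 0.989). The list for PSMB9 began with TAP2 (r = 0.988), which encodes a subunit of the TAP peptide transporter, and went on with HDAC1, TGFB3, the receptor CD40 and the complement factor CFB (r = 0.985). That for PSMB10 held SDSL, CD40, SPSB1, ABTB2 and TAP1, the other TAP subunit, with r between 0.981 and 0.982. In the RefSeq annotation of the Sscrofa11.1 pig assembly, TAP2, PSMB8, TAP1 and PSMB9 lie next to each other in this order, within the MHC region, while PSMB4 and PSMB10 are elsewhere.

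The other PSMB genes fell into 2 pairs. PSMB2 and PSMB3, structural subunits of the standard core, lay just outside the threshold of 0.26 in Tg2 against NC, while PSMB10 at 0.31 was the member just inside it. PSMB2 was at 88.5, 92.3 and 85.2 CPM in NC and at 110.2, 107 and 96.5 CPM in Tg2, without overlap and with a log2 fold change of 0.24 (SE 0.065). PSMB3 was at 81.2, 80.6 and 75.6 CPM in NC and at 94.6, 92.6 and 91.1 CPM in Tg2, a log2 fold change of 0.23 (SE 0.051). Both genes were also above all NC libraries in every Tg1 and Tg3 library, with log2 fold changes of 0.14 to 0.20. Of all tested genes 17.5% had every library above NC in Tg2, 11.9% in Tg1 and 13.4% in Tg3.

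PSMB1, another structural subunit, and PSMB7, the catalytic subunit that PSMB10 replaces, differed little between Tg2 and NC. PSMB1 was at 93.7, 93.8 and 93.7 CPM in NC and at 94.3, 95.9 and 96.3 CPM in Tg2 (log2 fold change 0.027, SE 0.040), so that its narrow NC range lay just below the Tg2 libraries. PSMB7 was at 103, 118 and 106 CPM in NC and at 109, 113 and 111 CPM in Tg2 (log2 fold change 0.022, SE 0.048). WT replicate 2, high for the 4 chosen genes, was only 1.04 times the mean of the other WT libraries for PSMB1 and 1.06 times for PSMB7, and 1.18 and 1.15 times for PSMB2 and PSMB3. Over the 15 libraries the correlations with the 4 chosen genes were 0.92 to 0.96 for PSMB2, 0.83 to 0.89 for PSMB3, 0.37 to 0.46 for PSMB7 and 0.045 to 0.15 for PSMB1. The median log2 fold change in Tg2 against NC was 0.41 over the chosen genes, 0.13 over the other PSMB genes and -0.0066 over all tested genes. Absence from the study's lists defines the second group, so this difference has no test.

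Against WT, the other PSMB genes were tested in Tg1 and Tg3, and edgeR called 0 of them. PSMB3 was higher in every Tg1 library than in every WT library (log2 fold change 0.22, SE 0.051, edgeR adjusted p = 0.0945), as was PSMB7 (0.15, SE 0.048, edgeR adjusted p = 0.178), where 8.45% of tested genes were. In Tg3, PSMB3 was above all WT libraries as well (0.16, SE 0.051, edgeR adjusted p = 0.154), where 10.3% of tested genes were. None of the chosen genes was free of overlap with WT in these contrasts. Without WT replicate 2, edgeR called PSMB3 higher in Tg1 (0.29, adjusted p = 0.00653), where 4.26% of tested genes were called higher. It called 0 of these 4 genes in Tg3, where 7.25% of tested genes were called higher. PSMB3 was also high in WT replicate 2, so its call without that library is a description.

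**Figure D3:**
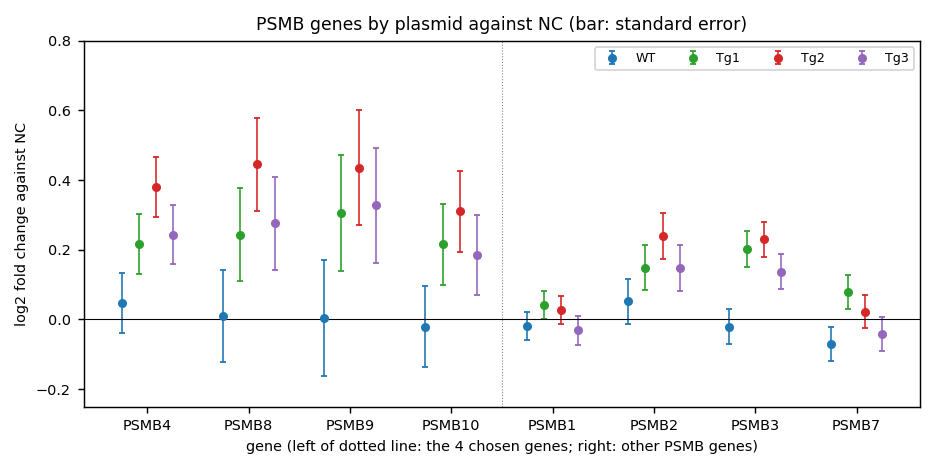
Log2 fold change against NC (vertical axis) of the 8 PSMB genes in the table for WT, Tg1, Tg2 and Tg3, with standard errors. Left of the dotted line, the 4 chosen genes have their highest value in Tg2 (0.31 to 0.44) and WT near 0. Right of it, PSMB2 and PSMB3 show the same order of Tg2 above Tg1 and Tg3 at 0.24 and 0.23, and PSMB1 and PSMB7 stay near 0.

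PSMB10 and PSMB7 were the only inducible and standard catalytic pair with both genes in the table under a symbol. The log2 ratio of their CPM within a library does not depend on library scaling. It was 0.13, 0.16 and 0.063 in NC and 0.56, 0.35 and 0.31 in Tg2, so that all Tg2 libraries were above all NC libraries. In WT it was 0.040, 0.40 and 0.016, with replicate 2 within the Tg2 range. Tg1 gave 0.077, 0.36 and 0.32 and Tg3 gave 0.29, 0.53 and 0.22. The means ± SD (n = 3) were 0.12 ± 0.051 for NC and 0.15 ± 0.22 for WT, whereas Tg1 had 0.25 ± 0.15, Tg2 had 0.40 ± 0.13 and Tg3 had 0.35 ± 0.16. Since PSMB10 was chosen on these libraries, the ratio has no test, and because neither gene is scaled by length a value above 0 does not mean that PSMB10 transcripts were more abundant.

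**Figure D4:**
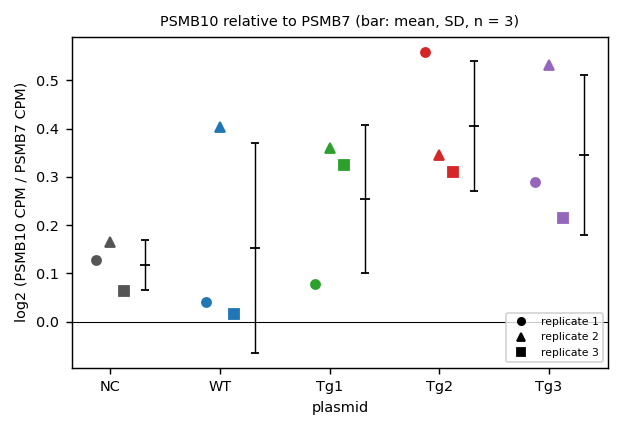
Log2 ratio of PSMB10 to PSMB7 CPM in each library (vertical axis) by plasmid, with the symbol marking the replicate number and a bar for the mean and SD of 3 libraries. The Tg2 libraries (0.31 to 0.56) lie above the NC libraries (0.063 to 0.16), and WT replicate 2 (0.40) lies apart from the other WT libraries.

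The rest of the proteasome was examined through 34 further genes of the alpha rings, the 19S particle, the activators and inhibitor and the assembly factors. The list did not cover the complexes in full, since PSMA6, PSMA8, PSMD2, PSMG1, PSMG2 and PSMG4 were not analysed here. In Tg2 against NC, edgeR's quasi-likelihood test called 4 of the 34 genes higher and 0 lower, where 4.73% of tested genes were called higher and 3.7% lower. DESeq2 called 6 of the 34, where it called 1252 of the 11553 tested genes in either direction. The 4 genes called by edgeR were PSME1, PSME2, PSMF1 and PSMD10. PSME1 and PSME2 encode the subunits of PA28, an interferon-inducible activator that caps the core in place of the 19S particle. PSME1 was at 327, 371 and 306 CPM in NC and at 445, 433 and 381 CPM in Tg2 (log2 fold change 0.32, SE 0.093, adjusted p = 0.0372). PSME2 rose from 215, 264 and 199 CPM to 338, 334 and 265 CPM (log2 fold change 0.47, SE 0.13, adjusted p = 0.0362). In both genes Tg2 replicate 3 was the lowest Tg2 library and only just above NC replicate 2. PSME3 and PSME4, which encode activators that belong to other complexes, gave log2 fold changes of -0.059 and -0.049 and were not called.

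PSMF1, which encodes an inhibitor of the core, was at 159, 189 and 151 CPM in NC and at 252, 243 and 207 CPM in Tg2, a log2 fold change of 0.49 (SE 0.15) with an adjusted p of 0.0419 by edgeR. PSMD10, a chaperone of 19S assembly also known as gankyrin, was at 31.9, 37.3 and 31.5 CPM in NC and at 47.9, 46.0 and 37.6 CPM in Tg2, a log2 fold change of 0.38 (SE 0.095, adjusted p = 0.0254 by edgeR). All 4 genes had no overlap between Tg2 and NC, where 17.5% of tested genes had every Tg2 library above every NC library. None of the 34 genes was called without Tg2 replicate 1, Tg2 replicate 2, NC replicate 1 or NC replicate 3. Of all tested genes these settings called 48, 0, 24 and 0, respectively, against 974 with all libraries. The loss was therefore not particular to the proteasome genes. Without Tg2 replicate 3, 7 were called, where 1878 of all tested genes were called in either direction.

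Among the 6 alpha subunit genes tested, 0 were called in Tg2 against NC by edgeR, and 3 had an unadjusted p-value under 0.05, as 35.2% of all tested genes had. PSMA2 was at 213, 255 and 193 CPM in NC and at 335, 324 and 266 CPM in Tg2, a log2 fold change of 0.49 (SE 0.16, edgeR adjusted p = 0.051). PSMA5 gave 0.37 (SE 0.14, edgeR adjusted p = 0.0739) and PSMA1 gave 0.26 (SE 0.098, edgeR adjusted p = 0.0766). PSMA2 and PSMA5 were called by DESeq2. The values were 0.20 for PSMA3, 0.021 for PSMA4 and -0.060 for PSMA7, so the alpha ring, like the beta ring, held genes with differences near those of the chosen genes and genes near 0. The median over the alpha genes was 0.23. In the 19S particle the medians were 0.016 over 6 ATPase genes, which unfold substrates, and 0.042 over 14 non-ATPase genes, and PSMD10 alone of these 20 was called. POMP, the maturation factor that acts during immunoproteasome and standard core assembly, gave 0.040 (SE 0.067, edgeR adjusted p = 0.689), and 0 of the 3 assembly genes were called. NFE2L1, the transcription factor that raises standard proteasome genes when proteasome activity is limiting, gave 0.079 (SE 0.051, edgeR adjusted p = 0.286).

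**Figure D5:**
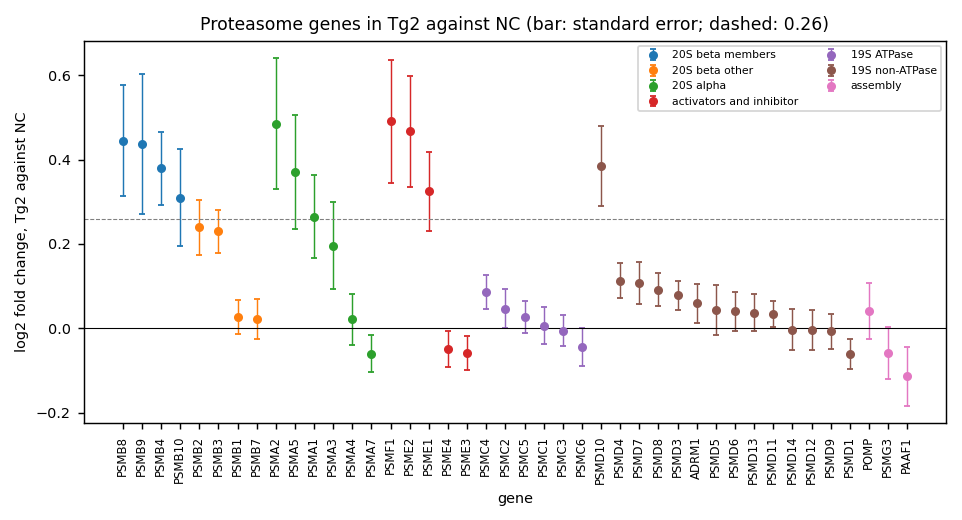
Log2 fold change of Tg2 against NC (vertical axis) for the proteasome genes tested, grouped by colour into the chosen beta genes, other beta genes, alpha genes, activators and inhibitor, 19S ATPases, 19S non-ATPases and assembly factors. Bars are standard errors and the dashed line is the threshold of 0.26. The chosen genes, PSMA2, PSMA5, PSMF1, PSME2, PSME1 and PSMD10 lie above the line, with PSMA1 just above it, and the 19S ATPases and the assembly factors lie near 0.

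For the other plasmids, edgeR called 0 of the 34 genes against NC for WT, Tg1 or Tg3, and DESeq2 called 0 for each, where edgeR called 1.19% of tested genes in Tg1 and 0% in WT and Tg3. DESeq2 called 10 of all tested genes in WT, 243 in Tg1 and 45 in Tg3. Of the 34 genes, those with an unadjusted p-value under 0.05 numbered 0 in WT, 11 in Tg1 and 2 in Tg3, where 4.54%, 19.9% and 18.1% of all tested genes were under that value. In Tg2 they also numbered 11, where 35.2% of tested genes were. PSME2 gave log2 fold changes of 0.31 (SE 0.13, edgeR adjusted p = 0.215) in Tg1 and 0.30 (SE 0.13, edgeR adjusted p = 0.259) in Tg3. Against WT, Tg2 had 2 of the 34 genes called, PSMD10 (log2 fold change 0.36, edgeR adjusted p = 0.0396) and PSME2 (0.47, edgeR adjusted p = 0.0431), where 3.31% of tested genes were called higher. EdgeR called 0 of the 34 genes without Tg2 replicate 1, Tg2 replicate 2, WT replicate 1 or WT replicate 3 and with only the libraries of the groups compared. Of all tested genes these settings called 0, 0, 1, 0 and 0, respectively, against 684 with all libraries. This loss was therefore not particular to the proteasome genes. It called 7 without Tg2 replicate 3, where 1878 of all tested genes were called in either direction. Without WT replicate 2 it called 8, where 12.1% of tested genes were called higher. DESeq2 with all libraries called 5, where it called 1184 of all tested genes in either direction.

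The immunoproteasome supplies peptides to MHC class I molecules, and 11 other genes of that pathway and its regulation were tested. In Tg2 against NC edgeR called 3 of them higher and 0 lower, where 4.73% of tested genes were called higher. These calls were lost in full without Tg2 replicate 1, Tg2 replicate 2, NC replicate 1 or NC replicate 3. Of all tested genes those settings called 48, 0, 24 and 0, respectively, against 974 with all libraries, so the loss was not particular to class I genes. Of the 11 genes, 6 were called without Tg2 replicate 3 or NC replicate 2, where 1878 and 1321 of all tested genes were called, respectively. TAPBP, which encodes tapasin, the bridge between the TAP transporter and class I molecules, was at 587, 643 and 583 CPM in NC and at 852, 815 and 749 CPM in Tg2 (log2 fold change 0.41, SE 0.092, adjusted p = 0.0207 by edgeR). TAP1, next to PSMB8 and PSMB9 in the genome, was at 663, 780 and 625 CPM in NC and at 1130.2, 1014 and 862 CPM in Tg2 (0.54, SE 0.17, adjusted p = 0.0454 by edgeR). ERAP1, which trims peptides in the endoplasmic reticulum, gave 0.42 (SE 0.13, adjusted p = 0.0458 by edgeR). In these 3 genes no Tg2 library fell within the NC range, where 17.5% of tested genes had every Tg2 library above every NC library.

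TAP2 (0.45), NLRC5 (0.45), a coactivator of class I genes, and IRF1 (0.42), an interferon-responsive transcription factor, were not called, at edgeR adjusted p-values of 0.064, 0.0921 and 0.114, respectively. Of the 11 genes, 9 were under 0.05 by unadjusted p-value, as were 35.2% of tested genes. B2M, the light chain of class I molecules, gave 0.25 (edgeR adjusted p = 0.066), and the class I heavy chain genes were not analysed here. The chaperones CALR and CANX were at -0.033 and -0.053, whereas 9 of the 11 genes were above 0, PDIA3 among them. In Tg2 against WT, PDIA3 gave 0.13 (SE 0.042, edgeR adjusted p = 0.057). In Tg1 and Tg3 edgeR and DESeq2 each called 0 of the 11 genes against NC, and 3 had an unadjusted p-value under 0.05 in either plasmid, where 19.9% of tested genes had in Tg1 and 18.1% in Tg3. WT replicate 2 was also high for this pathway, at 1.58 times the other WT libraries for TAP1 and 1.48 times for TAP2.

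Markers of other cell types were read beside these genes. CD74, a chaperone of MHC class II molecules that was on the immune list, was called higher in Tg2 than in NC (log2 fold change 0.48, SE 0.095, edgeR adjusted p = 0.0165). The summed level of all 8 immune markers was 251 to 286 CPM in NC and 336 to 376 CPM in Tg2, and without CD74 it was 30.5 to 33.0 CPM in NC and 29.8 to 35.4 CPM in Tg2. Besides CD74, 3 of the 8 passed the filter (CD68, CD79A and CD3E) and none of them was called against NC. CD68, a macrophage marker, was at 1.68, 2.11 and 1.40 CPM in WT and at 3.14, 3.27 and 2.66 CPM in Tg2, and edgeR called it higher in Tg2 than in WT (log2 fold change 0.81, SE 0.18, adjusted p = 0.0300), as it did CD74 (0.42, SE 0.095, adjusted p = 0.0300). In NC, CD68 was at 2.78, 2.67 and 2.31 CPM. Of the 11 epithelial markers, 5 were called lower in Tg2 than in NC, where 3.7% of tested genes were called lower. These were SLC34A1 (-0.46), LRP2 (-0.35), VIL1 (-0.34), CUBN (-0.33) and ANPEP (-0.29), all genes of the apical side of the proximal tubule. CDH1 (0.30), the epithelial cadherin, was called higher. Of the 11 epithelial markers, 4 had a log2 fold change above 0 in Tg2 against NC. ALPL, a further marker of the list, also went the other way from the 5 lower genes. It was not called against NC, and it differed from WT by 0.31 in Tg2 (SE 0.11, edgeR adjusted p = 0.0804). The marker calls against NC, CD74 included, were lost without Tg2 replicate 1, Tg2 replicate 2, NC replicate 1 or NC replicate 3, and those against WT without Tg2 replicate 1, Tg2 replicate 2, WT replicate 1 or WT replicate 3. Of all tested genes those settings called 48, 0, 24 and 0 against NC, and 0, 0, 1 and 0 against WT, respectively. The summed level of the epithelial markers was 4086 to 4127 CPM in NC and 4104 to 4300 CPM in Tg2. The summed fibroblast markers were 928 to 968 CPM in NC and 851 to 880.3 CPM in Tg2. The part of these markers in the proteasome results was not tested.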

How the data were processed

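RNA of 15 LLC-PK1 libraries (NC, WT, Tg1, Tg2 and Tg3, 3 wells each) was measured by mRNA sequencing. The authors quantified reads with Salmon against the Ensembl release 98 pig cDNA set and deposited gene counts as whole numbers, not normalized, and the submitters' processing notes also name DESeq2. How transcripts were summed to genes is not given in the sources used here. Subunit genes with similar transcripts can share reads in such quantification. Symbols came from the study's lists and the Sscrofa11.1 RefSeq table, which gave 13426 genes a symbol.

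The filter kept genes averaging at least 2 CPM (11553 genes, 99.8% of counts). Group means of all 15 libraries were fitted with edgeR 4.0.16 (TMM, quasi-likelihood test, Benjamini-Hochberg adjustment over all tested genes) in R 4.3.3. SEs were derived from the log2 fold change and the F statistic (fold change over root F). The study's thresholds (adjusted p of 0.05, log2 fold change of 0.26) were used, whereas its tool, DESeq2 (1.42.0 here), was an alternative. The fit was tested on simulated counts. The other alternatives were DESeq2 size factors, other filters, no fold threshold, only the groups compared, a replicate block, leaving out each library, and leaving out WT replicate 2 with NC replicate 2. The members and gene lists were chosen with earlier results of these data known. Named are all PSMB genes found, listed genes called against NC, direct partners, and the 5 genes most correlated with each member (log2 CPM, prior count 2). Other listed genes that were not called, such as PSME3, NFE2L1 and IRF1, and marker genes were named after their values were seen. Ratios of PSMB8 to PSMB5 and of PSMB9 to PSMB6 were not analysed here. The values of 1 gene of the class I list are not reported here.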

Additional observations from a re-analysis of the deposited data

How the results depend on the processing

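The log2 fold changes of the 4 PSMB genes in Tg1, Tg2 and Tg3 against NC kept their direction under every alternative run, and each stayed within the spread between replicates of its value in the report. The WT differences from NC moved more, from -0.072 to 0.12 for PSMB4 and from -0.19 to 0.070 for PSMB10 when single libraries were left out, as did Tg2 against WT, from 0.26 to 0.45 for PSMB4 and from 0.24 to 0.50 for PSMB10. Leaving out 1 library gave 0 to 4 calls of the 4 genes in Tg1 against WT and 0 to 3 of 3 in Tg3 against WT, the highest counts being those without WT replicate 2. Over all tested genes the calls then ranged from 0 to 852 and from 0 to 1321, respectively. Among other proteasome genes in Tg2 against NC (4 called) leaving out 1 library gave 0 to 7 calls, and among class I genes (3 called) it gave 0 to 6. With only the groups compared in the fit, 7 and 6 were called, and DESeq2 called 5 class I genes. Over all tested genes these settings called 1184 and 1252, respectively. An alternative without both WT replicate 2 and NC replicate 2, chosen after seeing the data, gave 4 and 3 calls of PSMB genes in Tg1 and Tg3 against WT, log2 fold changes of 0.45 and 0.50 for PSMB4 and PSMB10 in Tg2 against WT, 3, 8 and 3 other proteasome genes and 2, 8 and 2 class I genes in Tg1, Tg2 and Tg3 against NC. The replicate numbers were not taken to pair the libraries across plasmids, since nothing ties same-numbered wells together and 20 of 30 same-numbered pairs, not all, had a correlation of deviations above 0.1 (mean 0.14, lowest -0.36, against a mean of -0.071 for other numbers). The pairs of NC with WT (0.154 to 0.544) were all above 0.1, and in that comparison the block also called 0 other proteasome genes. With the replicate block, 1 other proteasome gene was called in Tg1 against NC (0 without it), and 7 other proteasome and 7 class I genes in Tg2 against NC. Over all tested genes, calls in Tg2 against NC numbered 974, with 1624 under the block, 1878 without Tg2 replicate 3, and 0 without Tg2 replicate 2. In Tg1 against NC they numbered 138, with 246 under the block, 243 with DESeq2, 16 without Tg1 replicate 2, 17 without NC replicate 3, 19 without NC replicate 1, 55 without Tg1 replicate 1, 77 without Tg1 replicate 3 and 83 without NC replicate 2. In Tg2 against WT they numbered 684, with 2421 without WT replicate 2 and 0 with only the groups compared. With 3 wells per plasmid, differences near the spread between wells are at the limit of these tests. The cause of these shifts was not tested.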
